A study of Homo sapiens with 27 samples.

Results

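Eph receptors and ephrins are paired cell-contact proteins, and 10 of their genes were followed here across every condition of an RNA-seq series on MCF10A cells. The members were taken by symbol from the 36536 genes of the deposited table: 6 receptors (EPHA2, EPHA4, EPHB2, EPHB3, EPHB4 and EPHB6) and 4 ephrins (EFNA1, EFNA5, EFNB1 and EFNB2). All 10 passed the filter on low counts and were among the 15575 genes tested. MCF10A is an established, non-tumorigenic human mammary epithelial line, grown here with 20 ng/ml epidermal growth factor (EGF) and then held for 18 h without growth factors. EGF, oncostatin M (OSM, a cytokine related to interleukin-6) and TGFB (transforming growth factor beta) were then given at 10 ng/ml each for 24 h. The 9 groups, with 3 libraries each, were EGF alone, OSM alone, TGFB alone, EGF+OSM, EGF+TGFB, OSM+TGFB, all 3 ligands, phosphate-buffered saline (PBS) as the vehicle control, and an untreated group labelled T0. The cells of every group came from 1 line and shared the growth medium and the factor-free period. The labels do not say whether the 3 libraries of a group came from separate cultures, so the p-values measure only the spread between these libraries, which may be technical.

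Eph receptors form the largest family of receptor tyrosine kinases. Their ligands, the ephrins, stay attached to the neighbouring cell, A ephrins by a lipid anchor and B ephrins by a membrane-spanning stretch, so that receptor and ligand signal into both cells at a contact. In epithelia, the mammary gland included, this system is known for its part in cell positioning, adhesion and the separation of cell layers. A receptors bind mainly A ephrins and B receptors mainly B ephrins, but not strictly, and EPHA4 is a known receptor that binds both.

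Library totals ran from 30.1 to 52.9 M counts (M, mega). Levels are given as CPM, the counts per 1 M of the scaled library total, and means are ± SD over 3 libraries. A gene was called when its p from the edgeR quasi-likelihood test, after Benjamini-Hochberg adjustment across every gene tested, was under 0.05, and fold changes are on the log2 scale ± SE. The basal mammary markers KRT5, KRT14, KRT17, TP63, ITGA6 and CDH3 were at 84.3 CPM or more in every library. Of the epithelial markers, CDH1, KRT8 and KRT18 were at 109 CPM or more in every library, and EPCAM was at 2.72 to 18.6 CPM. PTPRC, CD3E, CDH5, LUM and ADIPOQ, which define immune, endothelial, stromal and fat cells, were at or under 0.316 CPM. Of the other endothelial and fat cell markers VWF reached 3.52 CPM, PECAM1 2.06 CPM and PLIN1 0.660 CPM, and the summed endothelial list (CDH5, PECAM1 and VWF) was at 2.60 to 4.59 CPM in PBS and 0.707 to 1.02 CPM in EGF. DCN, also a fibroblast gene, was not near 0: the summed fibroblast list (DCN, LUM and PDGFRB) was at 85.9 to 95.9 CPM in PBS and 10.1 to 13.6 CPM in EGF. CD68 was at 20.2 to 50.4 CPM, and the summed immune list that it led was at 26.5 to 28.3 CPM in PBS and 39.6 to 43.0 CPM in OSM. The part of these genes' sources in the results below was not tested. In such bulk RNA, fewer cells of a type and less RNA per cell cannot be told apart.

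Every member was called with EGF and with OSM, and the family moved in both directions. Against PBS, EGF raised 5 members and lowered 5, where 73.5% of all genes tested were called (34.9% higher and 38.6% lower). OSM raised 7 and lowered 3, against a background of 63.4% (33.5% higher and 29.8% lower). TGFB raised 6 and lowered 1, against 35.6% (19.9% higher and 15.8% lower). The members' share of calls exceeded the background for each ligand, which is given as a description and not as a test. Because the members were chosen with earlier results of these data known, this excess is not a result about the family. The median log2 fold change of the members was -0.20 with EGF (all genes tested, -0.072), 0.65 with OSM (all genes, 0.0023) and 0.55 with TGFB (all genes, -0.0087). EPHB2, EPHB4, EFNB1 and EFNB2 rose with each single ligand, EPHB6 fell with each, and the call for EPHB4 with EGF depended on single libraries, as given with that gene. EFNA1 and EFNA5 fell with EGF and rose with OSM, while EPHA4 fell with EGF and OSM and rose with TGFB.

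**Figure D1:**
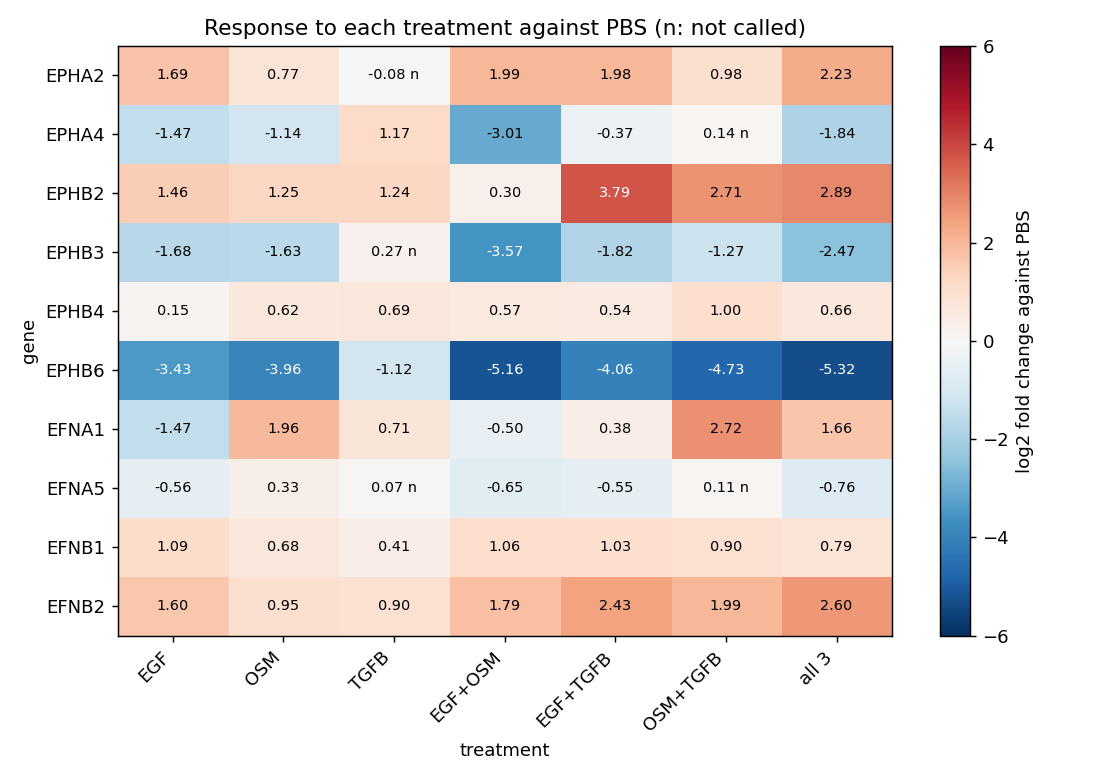
Log2 fold change against PBS of each member (rows) in each treated group (columns), as colour (red higher, blue lower) with the value printed and n where it was not called. The EPHB6 row is blue throughout, down to -5.32 with all 3 ligands, and EPHB2 reaches 3.79 with EGF+TGFB.

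EPHB2 and EPHB6 marked the 2 ends of these responses, and the 250 bases before their RefSeq start sites (GRCh38.p14, plus strand) are shown to compare the base composition there. Capitals mark CpG dinucleotides. The EPHB2 stretch lies at chr1:22710589-22710838 and the EPHB6 stretch at chr7:142862506-142862755. Neither overlaps an exon of the GENCODE v44 annotation, and the EPHB6 start used by RefSeq lies inside the span that GENCODE gives to the gene.
EPHB2: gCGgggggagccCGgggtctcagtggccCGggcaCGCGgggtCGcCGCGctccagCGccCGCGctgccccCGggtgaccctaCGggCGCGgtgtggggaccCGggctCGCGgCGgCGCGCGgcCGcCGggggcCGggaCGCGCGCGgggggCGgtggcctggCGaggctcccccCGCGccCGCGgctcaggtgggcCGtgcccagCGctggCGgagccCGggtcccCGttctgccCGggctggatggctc
EPHB6: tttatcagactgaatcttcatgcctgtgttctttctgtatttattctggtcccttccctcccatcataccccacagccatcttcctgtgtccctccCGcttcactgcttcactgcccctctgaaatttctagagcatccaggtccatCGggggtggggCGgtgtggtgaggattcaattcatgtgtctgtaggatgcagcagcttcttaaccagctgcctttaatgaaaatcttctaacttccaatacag
The EPHB2 stretch had 84.8% G or C and 41 CpG, and the EPHB6 stretch had 48% and 3, where the medians over 35116 RefSeq promoter windows were 58% and 11. Neither was particular to its gene among the members. EFNA5 had 79.6% and 41 CpG, EFNB2 78.4% and 40, and an EPHA4 start 43.2% and 9. A link between composition and response was not tested. All 10 members matched a RefSeq entry, with 12 windows of 300 bases (250 before to 50 after the start), since EPHA4 and EPHB2 had a pair of starts each. Both strands were searched for TGANTCA (the AP-1 motif), TTCNNNGAA (STAT) and CAGACA (SMAD). The first was in 0 of the 12 windows and in 7.71% of all windows, the next in 0 and in 7.66%, and CAGACA in 2 and in 16.9%. These 2 windows belonged to EPHA4 and EPHB6, in the latter on the minus strand with its first base 67 bases before the start. No match overlapped a match of another motif. A match is a description of letters and not evidence of binding.

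EPHA2 (ENSG00000142627; GRCh38 chromosome 1, 16124337 to 16156069, minus strand), a receptor prominent in epithelial cells, rose with EGF and with OSM. The PBS libraries held 47.9, 58.6 and 59.0 CPM of EPHA2 and the EGF libraries 179.7, 176 and 178 CPM. In the OSM libraries it was at 92.5, 80.4 and 109 CPM, and with all 3 ligands at 256, 254 and 269 CPM. All EGF, OSM and 3-ligand libraries lay above all PBS libraries, and the 3-ligand group was the highest of the 9. The log2 fold change was 1.69 ± 0.14 (adjusted p = 4.1e-10) with EGF and 0.77 ± 0.14 (adjusted p = 5.1e-05) with OSM. With TGFB it was -0.08 ± 0.14 (adjusted p = 0.687), and the TGFB and PBS libraries overlapped. EGF also raised EPHA2 in combination with OSM, by 1.23 on the log2 scale against OSM alone, and in combination with TGFB, by 2.06 against TGFB alone. Such changes within combinations are given below in the same way, against the group that lacked the ligand named. OSM added to EGF gave 0.30 ± 0.13 (adjusted p = 0.0831) and TGFB added to EGF 0.29 ± 0.13 (adjusted p = 0.0772), neither of which was called, although the libraries did not overlap. Both were called in a fit of the compared groups alone (0.27, adjusted p = 0.0015, and 0.29, adjusted p = 0.000495) and without T0 replicate 1 (0.30, adjusted p = 0.0274, and 0.28, adjusted p = 0.0253). In the order of group means, from 40.8 CPM in T0 to 259.7 CPM with all 3 ligands, T0 overlapped with TGFB, TGFB with PBS, OSM with OSM+TGFB, and EGF+TGFB with EGF+OSM.

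EPHA4 (ENSG00000116106; chromosome 2, 221418027 to 221574202, minus strand), a receptor that binds both ephrin classes, was lowered by EGF and OSM and raised by TGFB. Its levels in PBS were 6.85, 7.85 and 8.41 CPM, in EGF 2.58, 2.67 and 3.12 CPM and in OSM 3.33, 4.08 and 3.05 CPM. In TGFB they were 18.4, 15.6 and 18.1 CPM and in EGF+OSM 0.758, 1.05 and 1.04 CPM. The TGFB libraries lay above and the EGF, OSM and EGF+OSM libraries below every PBS library. The log2 fold changes were -1.47 ± 0.14 (adjusted p = 6.9e-10) for EGF, -1.14 ± 0.14 (adjusted p = 8e-08) for OSM and 1.17 ± 0.13 (adjusted p = 5.5e-08) for TGFB. With EGF+OSM it was -3.01 ± 0.16 (adjusted p = 6.9e-15), which is an 8.07-fold lower level. TGFB raised EPHA4 on every background: the log2 change was 1.10 in combination with EGF, 1.27 with OSM and 1.17 with both. OSM+TGFB left it at 8.47 ± 0.306 CPM, with a log2 fold change of 0.14 ± 0.13 (adjusted p = 0.377), not called. For EGF+TGFB it was -0.37 ± 0.13 (adjusted p = 0.0155), and this call was lost without PBS replicate 3 (-0.30, adjusted p = 0.0740) or without EGF+TGFB replicate 3 (-0.27, adjusted p = 0.106). In the order of its means EGF, OSM and T0 overlapped in turn, as did PBS and OSM+TGFB.

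EPHB2 (ENSG00000133216; chromosome 1, 22710839 to 22921500, plus strand), a receptor for B ephrins, rose with each ligand alone and most with EGF and TGFB together. It was at 8.70, 9.02 and 9.07 CPM in PBS, 25.6, 24.3 and 23.6 CPM in EGF and 22.1, 19.4 and 22.5 CPM in OSM. With TGFB it was at 19.9, 20.6 and 22.7 CPM, with EGF+TGFB at 129, 124 and 119 CPM and with EGF+OSM at 13.0, 11.3 and 8.72 CPM. The single-ligand libraries all lay above PBS, the EGF+TGFB libraries above every other library, and the EGF+OSM libraries overlapped with PBS. The log2 fold changes were 1.46 ± 0.093 (adjusted p = 3.2e-13) for EGF, 1.25 ± 0.094 (adjusted p = 1.2e-11) for OSM and 1.24 ± 0.094 (adjusted p = 7.2e-11) for TGFB, and 3.79 ± 0.094 (adjusted p = 3.2e-21) for EGF+TGFB, a 13.8-fold rise. EGF+OSM gave 0.30 ± 0.098 (adjusted p = 0.0082). That call was lost without EGF+OSM replicate 1 (0.17, adjusted p = 0.120), with upper-quartile scaling (0.21, adjusted p = 0.0561) and in a fit of the compared groups alone (0.28, adjusted p = 0.0633). OSM lowered EPHB2 in combination with EGF, with a log2 change of -1.16 ± 0.091 (adjusted p = 1.7e-10), and EGF lowered it in combination with OSM, with -0.96 ± 0.093 (adjusted p = 2.8e-09). With TGFB present, OSM lowered it in EGF-treated cells (-0.90), whereas EGF added to OSM+TGFB gave 0.18 ± 0.082 (adjusted p = 0.0629), not called. The latter was called in a fit of the compared groups alone (0.17, adjusted p = 0.0279), with no filter on low counts (0.20, adjusted p = 0.0494) and without EGF+OSM replicate 1 or 3 or EGF+TGFB replicate 3 (adjusted p from 0.0196 to 0.0403). TGFB raised it on every background, by 2.34 with EGF, 1.45 with OSM and 2.59 with both. From lowest to highest group mean, PBS, EGF+OSM and T0 overlapped in turn, as did TGFB and OSM. EGF, OSM+TGFB, all 3 ligands and EGF+TGFB then followed without overlap between neighbours.

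EPHB3 (ENSG00000182580; chromosome 3, 184561785 to 184582408, plus strand), another receptor for B ephrins, fell with EGF and with OSM and fell farthest with both. The PBS libraries were at 56.5, 62.3 and 62.2 CPM, the EGF libraries at 18.6, 20.2 and 17.4 CPM and the OSM libraries at 20.5, 22.4 and 15.3 CPM. EGF+OSM libraries were at 5.61, 6.12 and 3.44 CPM. No library of these treated groups reached the PBS level, and the EGF+OSM libraries were below all others. Its log2 fold changes were -1.68 ± 0.13 (adjusted p = 8.8e-11) for EGF, -1.63 ± 0.13 (adjusted p = 2.5e-10) for OSM and -3.57 ± 0.15 (adjusted p = 1.2e-15) for EGF+OSM, the last an 11.9-fold lower level. TGFB alone gave 0.27 ± 0.13 (adjusted p = 0.103), not called although its libraries (74.0, 73.2 and 70.8 CPM) lay above those of PBS. It was called in a fit of the compared groups alone (0.27, adjusted p = 0.00079) and without EGF+OSM replicate 3 (0.27, adjusted p = 0.0420). In combination with EGF+OSM, TGFB raised EPHB3 by 1.11 on the log2 scale, from 5.06 ± 1.42 to 10.9 ± 1.42 CPM. Neighbours overlapped only among EGF+TGFB (17.0 CPM), EGF and OSM.

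EPHB4 (ENSG00000196411; chromosome 7, 100802565 to 100827523, minus strand), known as the receptor for EFNB2, varied least of the receptors, over 2.0-fold from PBS to OSM+TGFB. It was at 87.7, 89.7 and 83.6 CPM in PBS, 140.3, 134 and 127 CPM in OSM and 145, 142 and 133 CPM in TGFB. With OSM+TGFB it reached 183, 180.4 and 159 CPM. All OSM, TGFB and OSM+TGFB libraries lay above all PBS libraries. On the log2 scale the changes were 0.62 ± 0.062 (adjusted p = 2.2e-09) for OSM, 0.69 ± 0.062 (adjusted p = 1.5e-09) for TGFB and 1.00 ± 0.062 (adjusted p = 1.8e-13) for OSM+TGFB. For EGF, with libraries at 94.5, 99.3 and 95.1 CPM, it was 0.15 ± 0.062 (adjusted p = 0.0358). That small rise lost its call without PBS replicate 1 (0.15, adjusted p = 0.0561), PBS replicate 3 (0.12, adjusted p = 0.127) or EGF replicate 2 (0.13, adjusted p = 0.114), with upper-quartile scaling (0.081, adjusted p = 0.246) and with no filter on low counts (0.15, adjusted p = 0.0527). The 5 groups between 126 and 140.3 CPM (EGF+TGFB, EGF+OSM, OSM, all 3 ligands and TGFB) overlapped in turn.

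EPHB6 (ENSG00000106123; chromosome 7, 142855061 to 142871094, plus strand), a receptor that lacks kinase activity, was close to absent in cells given EGF or OSM. Its counts were split over 2 rows with the same symbol, 38.4% in this one and 61.6% in ENSG00000275482, which is not in the primary GENCODE annotation, and the rows were summed. The libraries held 9.73, 9.62 and 15.1 CPM in PBS, 0.846, 1.28 and 1.05 CPM in EGF and 0.285, 0.865 and 1.03 CPM in OSM. In TGFB they held 4.59, 4.37 and 6.88 CPM and in the 3-ligand group 0.318, 0.105 and 0.407 CPM, which is 13, 3 and 13 counts. All treated libraries lay below all PBS libraries, and the 6 groups with EGF or OSM were each below TGFB alone. EPHB6 had log2 fold changes of -3.43 ± 0.28 (adjusted p = 1.1e-10) for EGF, -3.96 ± 0.30 (adjusted p = 4.2e-11) for OSM and -1.12 ± 0.25 (adjusted p = 0.00084) for TGFB, or 10.8-fold, 15.5-fold and 2.17-fold lower. In the order of means among the 6 groups with EGF or OSM each overlapped with its neighbour, from 0.277 CPM with all 3 ligands to 1.06 CPM with EGF. OSM added to EGF lowered EPHB6 by a further log2 change of -1.73 ± 0.40 (adjusted p = 0.00135), from 38, 64 and 43 counts to 6, 18 and 14.

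**Figure D2:**
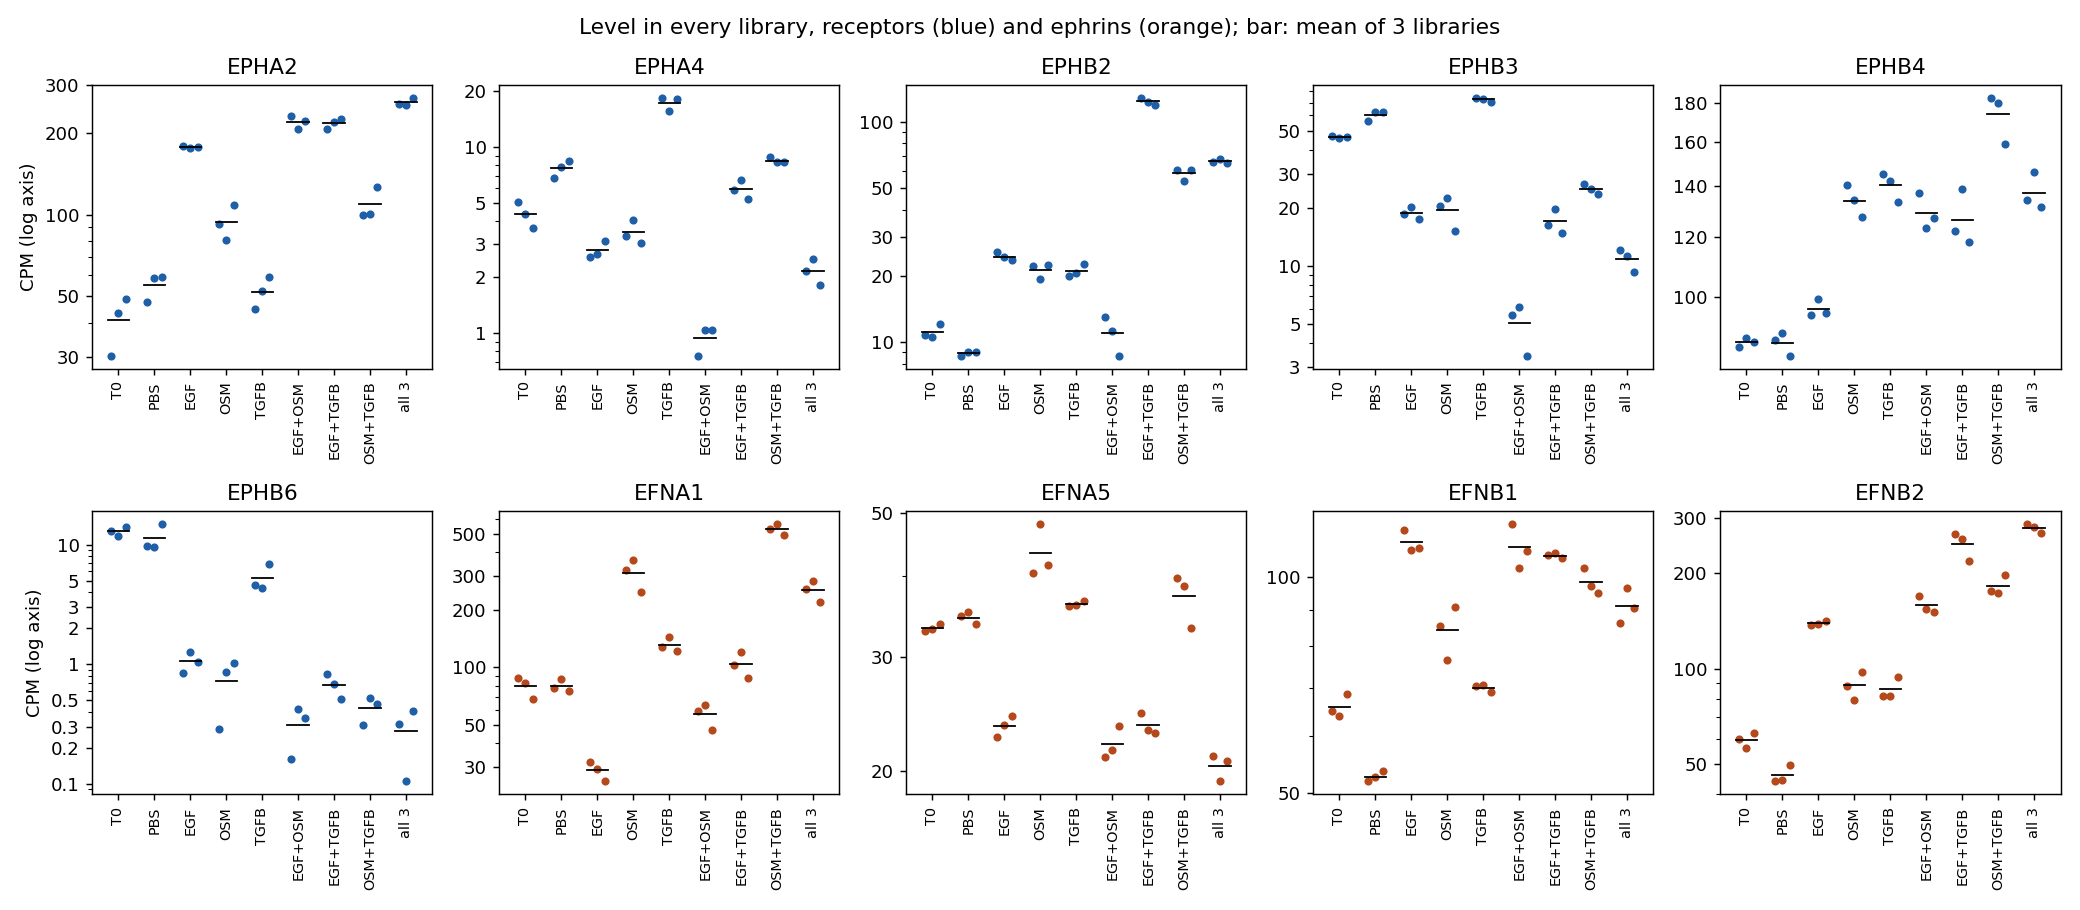
CPM (log axes, which differ between panels) of each member in each of the 27 libraries (points) with group means (bars), for the 9 groups on the x axis. EPHB6 spans 47.0-fold between its lowest and highest group means and EPHB4 2.0-fold, and the 3 libraries of a group mostly sit close together.

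EFNA1 (ENSG00000169242; chromosome 1, 155127876 to 155134899, plus strand), a known ligand of EPHA2, moved in opposite directions with EGF and OSM. It was at 78.1, 86.6 and 75.1 CPM in PBS, 32.0, 29.3 and 25.2 CPM in EGF and 322, 364 and 249 CPM in OSM. With EGF+OSM it was at 59.2, 63.6 and 47.2 CPM and with OSM+TGFB at 528, 565 and 492 CPM. EGF and EGF+OSM libraries were all below PBS, and OSM and OSM+TGFB libraries all above it. The log2 fold changes were -1.47 ± 0.15 (adjusted p = 1.6e-08) for EGF, 1.96 ± 0.15 (adjusted p = 1.7e-10) for OSM and 0.71 ± 0.14 (adjusted p = 0.00047) for TGFB. OSM+TGFB gave 2.72 ± 0.15 (adjusted p = 7.7e-13), a 6.61-fold rise, and EGF+OSM -0.50 ± 0.15 (adjusted p = 0.00423). EGF lowered EFNA1 in OSM-treated cells, with a log2 change of -2.46 ± 0.15 (adjusted p = 2.5e-11), a 5.50-fold difference, and in OSM+TGFB cells, with -1.06 ± 0.14 (adjusted p = 2.5e-06). TGFB raised it in EGF-treated cells by 1.85 and in EGF+OSM cells by 2.16. EGF+TGFB against PBS gave 0.38 ± 0.14 (adjusted p = 0.0219), a call lost without PBS replicate 1 (0.37, adjusted p = 0.0572), PBS replicate 3 (0.34, adjusted p = 0.0737) or EGF+TGFB replicate 2 (0.26, adjusted p = 0.137) and with upper-quartile scaling (0.29, adjusted p = 0.0787). In the order of group means, T0 overlapped with PBS, and the 3-ligand group (253 CPM) with OSM (312 CPM).

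EFNA5 (ENSG00000184349; chromosome 5, 107376894 to 107670937, minus strand), the other lipid-anchored ephrin, separated the groups with EGF from those without it. Its libraries were at 34.7, 35.2 and 33.7 CPM in PBS, 22.5, 23.6 and 24.4 CPM in EGF and 40.5, 48.2 and 41.6 CPM in OSM. The EGF libraries lay below and the OSM libraries above all PBS libraries. EFNA5 had log2 fold changes of -0.56 ± 0.066 (adjusted p = 3.9e-08) for EGF and 0.33 ± 0.065 (adjusted p = 8.4e-05) for OSM. TGFB gave 0.07 ± 0.066 (adjusted p = 0.449) and OSM+TGFB 0.11 ± 0.066 (adjusted p = 0.153), neither called. The 4 groups with EGF had means of 20.4 to 23.5 CPM and overlapped in turn, and the 5 without it had means of 33.3 to 43.4 CPM. EGF lowered EFNA5 in OSM-treated cells by a log2 change of -0.98 ± 0.067 (adjusted p = 9.4e-12), and in OSM+TGFB cells by -0.87 ± 0.068 (adjusted p = 1.8e-10).

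EFNB1 (ENSG00000090776; X chromosome, 68829021 to 68842160, plus strand), a membrane-spanning ephrin, was lowest in PBS and higher in every treated group. It was at 51.8, 52.5 and 53.5 CPM in PBS, 116, 109 and 109.9 CPM in EGF, 85.5, 76.6 and 90.8 CPM in OSM and 70.3, 70.7 and 69.2 CPM in TGFB. No treated library overlapped with PBS. EFNB1 had log2 fold changes of 1.09 ± 0.057 (adjusted p = 1.1e-14) for EGF, 0.68 ± 0.057 (adjusted p = 1.2e-10) for OSM and 0.41 ± 0.058 (adjusted p = 2.4e-06) for TGFB. No combination had a higher mean than EGF alone: EGF+OSM was at 110.1 ± 7.98 CPM, EGF+TGFB at 107 ± 0.881 CPM and all 3 ligands at 91.1 ± 5.16 CPM. In combination with EGF+OSM, TGFB lowered EFNB1, with a log2 change of -0.27 ± 0.057 (adjusted p = 0.00015). EGF+TGFB, EGF+OSM and EGF overlapped in turn, as did OSM, all 3 ligands and OSM+TGFB.

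EFNB2 (ENSG00000125266; chromosome 13, 106489745 to 106535662, minus strand), the ligand of EPHB4, rose in all 7 treated groups. It was at 43.9, 44.3 and 49.5 CPM in PBS, 137, 139 and 141 CPM in EGF and 88.0, 79.7 and 97.8 CPM in OSM. With TGFB it was at 82.0, 81.7 and 93.9 CPM, with EGF+TGFB at 266, 258 and 219 CPM and with all 3 ligands at 288, 281 and 268 CPM. Every treated library lay above every PBS library, and the 3-ligand libraries lay above all others. The log2 fold changes were 1.60 ± 0.080 (adjusted p = 4.9e-15) for EGF, 0.95 ± 0.080 (adjusted p = 1.2e-10) for OSM, 0.90 ± 0.080 (adjusted p = 1.3e-09) for TGFB and 2.60 ± 0.082 (adjusted p = 1.8e-19) for all 3 ligands. TGFB raised it by 0.83 in combination with EGF, 1.04 with OSM and 0.82 with both. OSM added to EGF gave 0.19 ± 0.077 (adjusted p = 0.0584), which was not called. It was called in a fit of the compared groups alone (0.16, adjusted p = 0.0333) and without OSM replicate 2 or 3 or EGF+TGFB replicate 3 (adjusted p from 0.0302 to 0.0449). Only TGFB and OSM overlapped as neighbours in the order of means.

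The summed levels of the 6 receptor and 4 ephrin members changed in size and in make-up. Other genes of the family were left out of these sums, so the shares are shares of the members only. Among those left out, EPHA1 was at 22.4 CPM in PBS, EFNA3 at 29.1 CPM, EFNA4 at 18.5 CPM and EFNB3 at 15.0 CPM. Levels between genes were compared as CPM per kilobase of the canonical transcript. The 6 receptors summed to 53.1 ± 2.75 CPM per kilobase in PBS, 74.6 ± 0.614 in EGF and 106 ± 1.35 with all 3 ligands. EPHB4 held the largest share in PBS, 37.7% ± 2.64, and EPHA2 the largest in EGF, 60.5% ± 0.932, up from 26.3% ± 1.71 in PBS. EPHB3 went from 26.8% ± 0.0930 in PBS to 1.36% ± 0.404 in EGF+OSM. The 4 ephrins summed to 83.1 ± 3.55 CPM per kilobase in PBS, 84.6 ± 2.64 in EGF, 252 ± 34.2 in OSM and 414 ± 22.1 in OSM+TGFB. EFNA1 held 62.0% ± 2.08 of that sum in PBS, 21.9% ± 1.94 in EGF and 82.2% ± 1.34 in OSM+TGFB, so that in EGF the B ephrins EFNB1 (40.0% ± 0.595) and EFNB2 (32.9% ± 1.44) held most of it. These shares were not tested, and they depend on the length used: by coding length EFNA1 held 46.9% in PBS and 14.3% in EGF, and EPHB2 in EGF+TGFB held 25.1% of the receptors in place of 11.2%.

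With the pairs, 10 members were called against PBS with EGF+OSM (5 higher and 5 lower, background 77.2%) and 10 with EGF+TGFB (6 and 4, background 73.7%). OSM+TGFB gave 8 (6 and 2, background 66.0%) and all 3 ligands 10 (6 and 4, background 74.4%). These counts include EPHB2 for EGF+OSM and EPHA4 and EFNA1 for EGF+TGFB, whose calls depended on single libraries as given above. Whether these responses were the sum of the single responses was tested as a departure: the log2 fold change of the combination minus the sum of those of its single ligands, which is 0 when fold changes multiply.

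EGF and OSM together departed from their sum for 6 members, 1 higher and 5 lower, where 38.7% of all genes tested departed (15.7% higher and 23.0% lower). All 4 ephrins were among the lower ones, with departures of -0.99 ± 0.21 (adjusted p = 0.00065) for EFNA1, -0.43 ± 0.094 (adjusted p = 0.00074) for EFNA5, -0.70 ± 0.080 (adjusted p = 1.1e-07) for EFNB1 and -0.76 ± 0.11 (adjusted p = 4.7e-06) for EFNB2. EPHB2 departed the most, at -2.41 ± 0.13 (adjusted p = 3.3e-13): a pair of rises of 1.46 and 1.25 gave 0.30 together. EPHB6 departed upward, at 2.22 ± 0.54 (adjusted p = 0.00204). Its single responses were -3.43 and -3.96, and the EGF+OSM libraries held 6, 18 and 14 counts. The part of so low a level in this departure was not tested. The receptors EPHA2, EPHA4 and EPHB3 had departures of -0.46 ± 0.19 (adjusted p = 0.0621), -0.41 ± 0.22 (adjusted p = 0.155) and -0.25 ± 0.20 (adjusted p = 0.353), none of them called. EPHB4, at -0.20 ± 0.087 (adjusted p = 0.0715), was not called either. That of EPHA2 was called in a fit of the compared groups alone (-0.48, adjusted p = 0.0162), with DESeq2 (-0.45, adjusted p = 0.0429) and without T0 replicate 1 or 3 or OSM replicate 2 (adjusted p from 0.0181 to 0.0441).

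**Figure D3:**
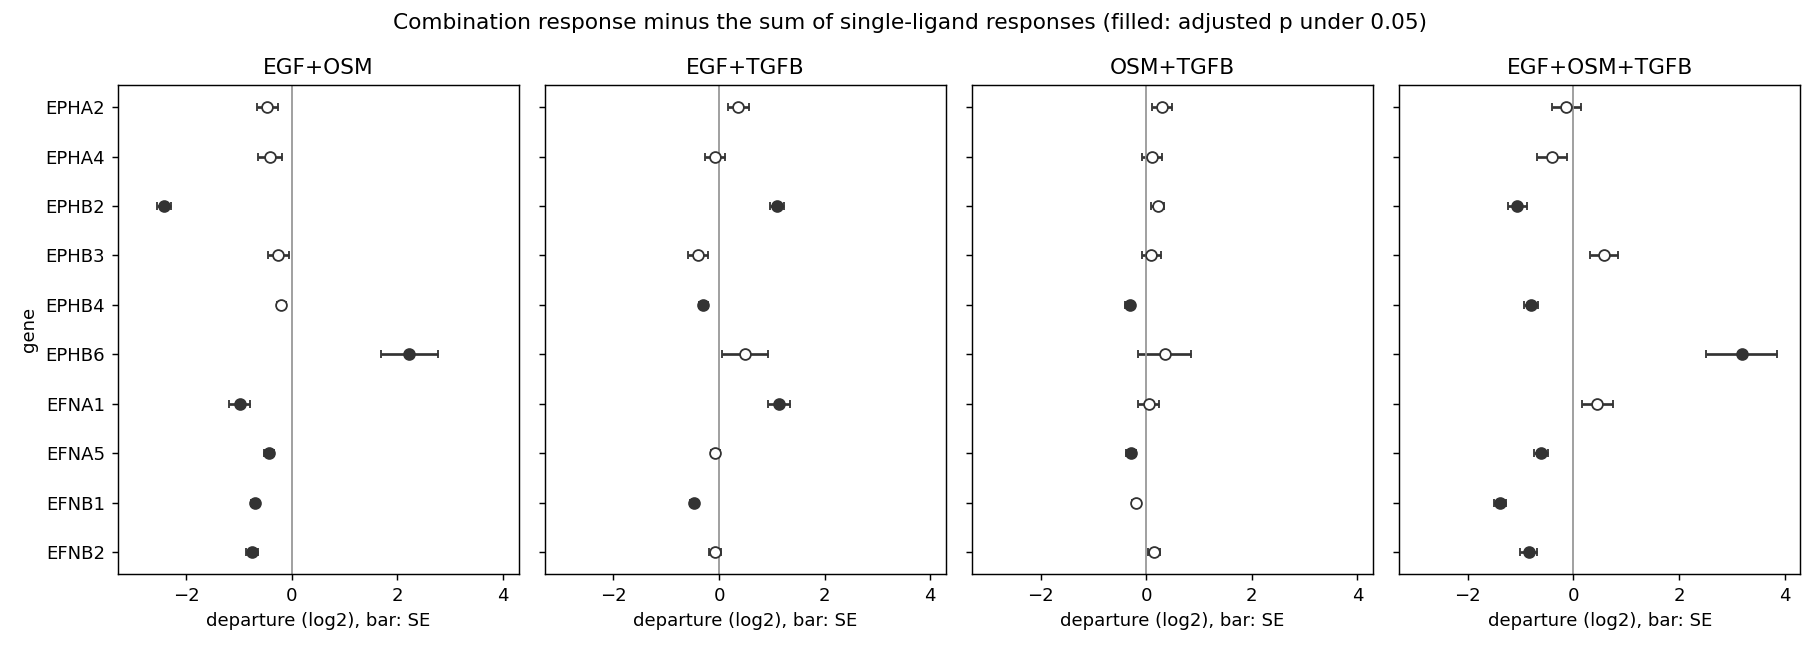
Departure of each combination from the summed single responses (x axis, log2 units), with bars of 1 SE, for each member; filled points were called. EPHB2 lies at -2.41 for EGF+OSM and at 1.10 for EGF+TGFB. EPHB6 lies at 3.19 for all 3 ligands, where its libraries held 13, 3 and 13 counts.

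EGF and TGFB together departed for 4 members, 2 higher and 2 lower, against a background of 29.8%. EPHB2 exceeded the sum by 1.10 ± 0.13 (adjusted p = 5.9e-07) and EFNA1 by 1.14 ± 0.21 (adjusted p = 0.0003). EFNB1 fell short of it, at -0.47 ± 0.080 (adjusted p = 8.4e-05), as did EPHB4, at -0.30 ± 0.087 (adjusted p = 0.0107). The EPHB4 call was lost without EGF+TGFB replicate 3 (-0.19, adjusted p = 0.102). OSM and TGFB together departed for 2 members, both lower, against a background of 23.3%: EPHB4 at -0.31 ± 0.087 (adjusted p = 0.0104) and EFNA5 at -0.29 ± 0.093 (adjusted p = 0.023). The EFNA5 call was lost without PBS replicate 3 (-0.28, adjusted p = 0.0542), OSM replicate 2 (-0.21, adjusted p = 0.0896) or OSM+TGFB replicate 3 (-0.22, adjusted p = 0.0807), and with no filter on low counts (-0.27, adjusted p = 0.0577). With all 3 ligands 6 members departed, 1 higher and 5 lower, against a background of 48.0%. EFNB1 was among them at -1.39 ± 0.12 (adjusted p = 5.6e-10), EFNB2 at -0.85 ± 0.16 (adjusted p = 9e-05), EFNA5 at -0.61 ± 0.13 (adjusted p = 0.0005), EPHB2 at -1.06 ± 0.19 (adjusted p = 3.9e-05) and EPHB4 at -0.80 ± 0.12 (adjusted p = 7.3e-06). EPHB6 was the higher one, at 3.19 ± 0.67 (adjusted p = 0.00037). Its single responses were -3.43, -3.96 and -1.12, and the 3-ligand libraries held 13, 3 and 13 counts. A level so near 0 leaves little room for a further fall, and the part of this in the departure was not tested.

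**Figure D4:**
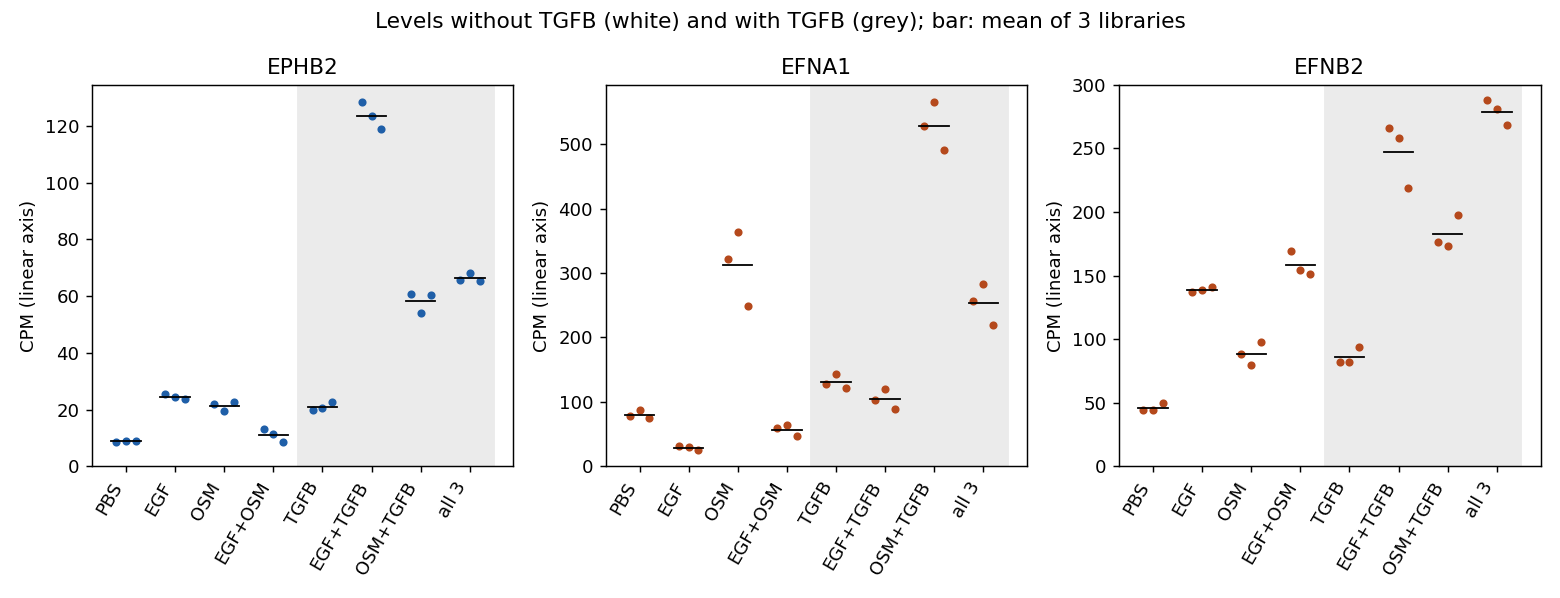
CPM (linear axes from 0) of EPHB2, EFNA1 and EFNB2 in PBS and the 7 treated groups, each point a library and each bar a mean of 3; grey marks groups with TGFB. EPHB2 peaks with EGF+TGFB at 124 CPM, EFNA1 with OSM+TGFB at 528 CPM and EFNB2 with all 3 ligands at 279 CPM.

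The ligands of a combination were given together, and a ligand is called added to another where the combination was compared with the group that lacked it. OSM added to EGF raised 2 members and lowered 4 (background 34.9%): EPHB4 (0.42) and EFNA1 (0.97) rose, and EPHA4 (-1.55), EPHB2, EPHB3 (-1.89) and EPHB6 fell. TGFB added to EGF raised 5 (EPHA4, EPHB2, EPHB4, EFNA1 and EFNB2), against 54.6%, and the other 5 were not called. TGFB added to EGF+OSM raised 5 and lowered EFNB1, against 61.1%. EGF added to OSM+TGFB raised EPHA2 (1.25) and EFNB2 (0.61) and lowered EPHA4 (-1.97), EPHB3 (-1.20), EPHB4 (-0.34), EFNA1 and EFNA5, against 52.2%.

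Each of the other additions called 7 members or more. OSM added to TGFB called 9, 6 higher and 3 lower (background 56.6%), among them EPHA2 (1.07), EPHB2 (1.47) and EFNA1 (2.01) that rose and EPHB6 (-3.61) that fell (-2.82 with rows as deposited, adjusted p = 2.64e-05). EGF added to OSM called 9, 3 higher and 6 lower (background 61.7%), with EPHB6 at -1.21, not called without OSM replicate 2 or 3 or EGF+OSM replicate 1 (adjusted p from 0.0748 to 0.102) or with rows as deposited (adjusted p = 0.140). EGF added to TGFB called 10, 4 higher and 6 lower (background 69.4%). Of these, EPHB4 (-0.15) was not called without TGFB replicate 1 or 2 or EGF+TGFB replicate 1 or 3 (adjusted p from 0.0758 to 0.444), and EFNA1 (-0.33) not without any 1 of T0 replicate 2, PBS replicates 1 and 3, EGF replicate 2, OSM replicate 1, TGFB replicates 1 and 2, EGF+OSM replicate 1, EGF+TGFB replicates 1 and 3, OSM+TGFB replicate 1 and 3-ligand replicate 1 (adjusted p from 0.0500 to 0.309). TGFB added to OSM called 8, 7 higher and 1 lower (background 51.6%). In it EPHB3 (0.37) was not called without OSM replicate 3 or OSM+TGFB replicate 1 or 2 (adjusted p from 0.0591 to 0.182), nor EFNA5 (-0.22) without OSM replicate 2 or OSM+TGFB replicate 3 (adjusted p = 0.0826 and 0.0668). OSM added to EGF+TGFB called 7, 1 higher and 6 lower (background 26.4%). The higher one was EFNA1 (1.28), while EPHB6 (-1.26) was not called without any 1 of T0 replicate 1, EGF replicate 3, OSM replicate 2, TGFB replicate 1, EGF+OSM replicate 3, EGF+TGFB replicates 1 and 2, OSM+TGFB replicates 2 and 3 and 3-ligand replicates 1 and 2 (adjusted p from 0.0505 to 0.177). EFNA5 (-0.21) was not called there without EGF+TGFB replicate 1 or 3-ligand replicate 2 (adjusted p = 0.109 and 0.122).

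Over the treatment period without ligand, PBS differed from T0 for 6 members, 3 higher and 3 lower, where 35.1% of all genes were called. EPHA4 rose by 0.81 ± 0.13 (adjusted p = 3.3e-05), and EFNB1, at -0.32 ± 0.057 (adjusted p = 8.4e-05), and EFNB2, at -0.37 ± 0.080 (adjusted p = 0.00068), fell. The other 3 calls each depended on single libraries. EPHA2, at 0.43 ± 0.14 (adjusted p = 0.0188), lost its call without T0 replicate 1 (0.26, adjusted p = 0.114), PBS replicate 2 (0.39, adjusted p = 0.0704) or PBS replicate 3 (0.38, adjusted p = 0.0710), with no filter on low counts (0.43, adjusted p = 0.0504) and in a fit of those groups alone (0.44, adjusted p = 0.126). EPHB2, at -0.32 ± 0.097 (adjusted p = 0.0117), lost it without T0 replicate 3 (-0.26, adjusted p = 0.0736). EPHB3, at 0.38 ± 0.13 (adjusted p = 0.0231), lost it without any 1 of the 3 T0 libraries or without PBS replicate 2 or 3, with adjusted p from 0.0515 to 0.0719, and with no filter on low counts (adjusted p = 0.0672). The change of EPHA4, 1.76-fold, had the largest size of the 10.

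Across the 9 group means of log2 CPM, which come from the same libraries, Pearson's r over the 45 pairs of members ran from -0.885 to 0.890 with a median of 0.102. EPHA2 varied most like EFNB2 (0.890) and most unlike EPHB6 (-0.885) and EPHB3 (-0.874). EFNB1 and EFNB2 had an r of 0.841, and EPHA4 and EPHB3 of 0.872. Of the pairs named above as receptor and ligand, EPHB4 and EFNB2 had an r of 0.619 and EPHA2 and EFNA1 of -0.0423. Other pairs of a receptor and an ephrin of the same class ran from -0.871 (EPHB6 and EFNB2) to 0.822 (EPHB2 and EFNB2). Among them EPHA2 and EFNA5 had -0.793, EPHB3 and EFNB1 -0.792, and EPHA4 and EFNA5 0.626. For the 3 members with the widest range, the genes of most like pattern were sought among 9249 genes that varied at least 2-fold over the 9 groups. They were SCARA5 (r = 0.993), GMPR (0.993) and CNTN3 (0.990) for EPHB6, IQGAP2 (0.977), CD99L2 (0.972) and SEMA6A (0.971) for EFNA1, and PIM1 (0.975), MFGE8 (0.969) and LGALS9 (0.963) for EPHA4.

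Most other genes of the family were low. Of 12 other Eph and ephrin genes, 9 were tested and 8 had no group mean of 2 CPM or more. The 4 above that level were EPHA1, EFNA3, EFNA4 and EFNB3. Of the 9, EGF lowered 6 and the other 3 were not called, which is 66.7% called beside 73.5% of all genes tested. OSM raised 2 and lowered 5 (77.8% beside 63.4%), and TGFB raised 4 and lowered 1 (55.6% beside 35.6%). EFNB3, the remaining B ephrin, fell with EGF from 15.0 ± 0.545 to 2.27 ± 0.417 CPM (log2 -2.71 ± 0.14, adjusted p = 1e-14), and EFNA3 from 29.1 ± 1.74 to 9.13 ± 0.484 CPM (log2 -1.67 ± 0.13, adjusted p = 1.1e-11). EPHA3 held 49 counts in the PBS libraries together and 3 in the EGF libraries, a ratio of 17.5 with an exact 95% interval of 5.63 to 87.6 that covers counting error only. With TGFB it rose from 0.391 ± 0.127 to 1.69 ± 0.237 CPM, and with OSM it fell to 0.106 ± 0.0565 CPM. EFNA2 held 4 counts in PBS and 96 with TGFB, a ratio of 26.2 (9.90 to 98.1), and 31 with OSM, a ratio of 8.41 (2.97 to 32.8). EPHA10 rose with OSM from 0.457 ± 0.0491 to 1.18 ± 0.459 CPM and EPHA5 with TGFB from 0.183 ± 0.0579 to 0.484 ± 0.213 CPM.

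Of 53 genes for adaptors, kinases, GTPases, exchange factors, phosphatases and proteases that act with Eph receptors or ephrins, all were tested. EGF raised 26 and lowered 21, which is 88.7% called beside 73.5% of all genes tested. OSM raised 26 and lowered 17 (81.1% beside 63.4%), and TGFB raised 29 and lowered 4 (62.3% beside 35.6%). The list was chosen with earlier results of these data known, so this excess is not a result about Eph signalling. The median log2 fold changes of the 53 genes were 0.11, 0.13 and 0.17, beside -0.072, 0.0023 and -0.0087 over all genes tested. ADAM12, a metalloprotease, rose from 5.21 ± 0.614 CPM in PBS to 22.1 ± 0.174 CPM with EGF and 63.1 ± 11.1 CPM with OSM. NGEF, the exchange factor ephexin, rose with EGF from 0.716 ± 0.194 to 6.52 ± 0.131 CPM and with TGFB to 1.85 ± 0.335 CPM. PTPRO, a phosphatase that acts on Eph receptors, rose from 0.347 ± 0.0802 to 2.79 ± 0.343 CPM with EGF and 1.49 ± 0.262 CPM with OSM. With TGFB the adaptor GRB10 rose from 68.0 ± 1.87 to 141 ± 9.60 CPM and the kinase SRC from 46.0 ± 1.04 to 90.0 ± 3.83 CPM. KALRN, another exchange factor, fell with OSM from 0.468 ± 0.0621 to 0.123 ± 0.0429 CPM, with only 296 counts over the 27 libraries together.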

How the data were processed

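Polyadenylated RNA of 27 MCF10A libraries, 9 groups of 3 by their labels, was read from 1 table of 40487 rows that the authors deposited as estimated counts per gene. Per the submitters' processing notes the tools were Trim Galore 0.4.3, cutadapt 1.10, FastQC 0.11.5, kallisto 0.46.2 and R 3.5.0, and the builds GRCh38.p5 and hg38. How transcript estimates became whole gene counts is not given in the sources used here, and no correction for transcript length was made. The kit marked strand, per the labels' protocols. Rows sharing a symbol were summed, which left 36536 genes. Of the rows, 7165 had no symbol and kept their identifier (0.324% of counts). The table had 0 value columns beside the 27 libraries. Totals ran from 30.1 to 52.9 M (median 39.5 M). EPHB6 had as few as 3 counts in a library, and every other member had at least 28. Replicate libraries differed by more than counting would give (chi-square per degree of freedom, 6.84 to 33.9).

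Genes were filtered with filterByExpr by group (15575 left) and scaled by TMM (trimmed mean of M-values, factors 0.867 to 1.12). They were fitted with edgeR 4.0.16 in R 4.3.3 (glmQLFit, robust, 18 residual degrees of freedom, all groups sharing the spread) and tested with glmQLFTest over 21 contrasts. Adjusted p-values are Benjamini-Hochberg over all genes tested, per contrast. The biological coefficient of variation was 7.83%. On simulated counts for EGF against PBS (15025 genes), 99% of genes changed by 2 on the log2 scale and 95% of those changed by 1 were recovered, and 13 unchanged genes were called. Coordinates and lengths are GENCODE v44 on GRCh38, and promoter sequences are RefSeq's for GRCh38.p14; protein sequences were not used here. The 10 members and the lists of other family, signalling and marker genes were chosen with earlier results of these data known. One gene of the marker lists is not reported here by name, though the list sums include it. All members are described. From each list the 3 called genes with the largest fold change for each single ligand are named. Among them EFNA2, EPHA3, EPHA5, EPHA10 and KALRN rest on few counts. The alternatives were other scalings, no filter on low counts, rows as deposited, a fit of the compared groups alone, DESeq2 1.42.0, a 2-fold minimum, a replicate block, and each library left out in turn.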

Additional observations from a re-analysis of the deposited data

Results flagged for a closer look

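The effect of EGF on EPHB2 had the opposite sign with and without OSM. Every EGF library lay above every PBS library (log2 fold change 1.46), and every EGF+OSM library lay below every OSM library (-0.96). The difference was -2.41 on the log2 scale, with an adjusted p of 3.3e-13 in edgeR's quasi-likelihood test. The same contrast read the other way gives the effect of OSM on EPHB2, 1.25 without EGF and -1.16 with it, which also differ by -2.41.

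The effect of EGF on EPHB4 differed in sign without and with TGFB, at 0.15 and -0.15, a difference of -0.30 (adjusted p = 0.0107 in edgeR's quasi-likelihood test). It was not called without EGF+TGFB replicate 3 (-0.19, adjusted p = 0.102). EGF+TGFB and TGFB libraries overlapped for EPHB4. Both effects were small and unstable: of 35 alternatives, the 0.15 lost its call in 5 and the -0.15 in 6, DESeq2 among the latter.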

How the results depend on the processing

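Of 210 values (10 members in 21 contrasts), 156 were called. Of these, 140 kept their call and 16 lost it in at least 1 of 35 alternatives, and 0 reversed. The 35 leave out the 2-fold minimum, which removed many more calls. They include the omission of a pair of libraries that is named below. The members concerned in the comparisons above are named there. Requiring a change of at least 2-fold lowered the members called against PBS to 8 (EGF), 5 (OSM), 3 (TGFB), 6 (EGF+OSM) and 6 (EGF+TGFB). It gave 6 for OSM+TGFB, 7 for all 3 ligands and 0 for PBS against T0. Departures then numbered 2 (EGF+OSM), 2 (EGF with TGFB), 0 (OSM with TGFB) and 3 (all 3 ligands). The 2-fold minimum left 4 for OSM added to EGF, 5 for EGF added to OSM and 3 for TGFB added to EGF. There were 6 left for EGF added to TGFB, 3 for TGFB added to OSM and 7 for OSM added to TGFB. For TGFB added to EGF+OSM 4 were left, for OSM added to EGF+TGFB 3 and for EGF added to OSM+TGFB 4. With no filter on low counts the departure of OSM+TGFB was called for 1 member. Leaving out single libraries gave 1 to 2 there, with 1 without PBS replicate 3 or without OSM+TGFB replicate 3. The uncalled log2 fold change of EPHA2 with TGFB ranged from -0.18 to 0.011 when single libraries were left out, the latter without TGFB replicate 1. Deviations of same-numbered libraries correlated at -0.0265 to 0.178 over 36 pairs of groups, with every correlation over 0.1 in 2 of them (EGF with OSM, PBS with EGF+TGFB), and in 20 every library correlated best with its own number, a hint from the data, not the design. With a replicate block 166 values were called, 10 gained and 0 lost. Among those gained were EPHA2 for OSM added to EGF (adjusted p = 0.0301), for TGFB added to EGF (0.0310) and for the EGF+OSM departure (0.0228). EPHB3 with TGFB (0.0335), EFNB2 for OSM added to EGF (0.0440) and EPHB2 for EGF added to OSM+TGFB (0.0448) were others. Leaving out both OSM replicate 3 and EGF+TGFB replicate 2 was chosen after seeing the data. EPHB6, with as few as 3 counts in a library, is where depth limits these values.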
